A study of Mus musculus with 18 samples.

Results

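Primary enteric glial cell (EGC) cultures are prepared from gut muscle, so genes of fibroblasts and smooth muscle give a view of the non-glial cells that such cultures can hold. The 9 genes described here were picked by symbol, with earlier results of these data known, and no value entered the rule. They are the fibroblast genes Dcn, Lum, Pdgfra, Pdgfrb, Thy1 and Postn and the smooth muscle genes Acta2, Actg2 and Tagln, and all 9 had a row among the 13452 genes of the authors' EGC table. EGCs came from the small bowel muscularis externa of C57BL/6 wild-type mice (genotype Bl6 in the labels), passed through neurospheres and a differentiation step, and then received either vehicle (Control) or IL-1β at 10 ng/ml for 24 h, with 3 libraries per group. The series also holds bone-marrow-derived macrophages (BMDMs) of Il1R1-KO mice, kept for 3 h in RPMI, in conditioned medium of vehicle-treated EGCs (CM-Veh) or in that of IL-1β-treated EGCs (CM-IL-1), with 4 libraries each. By the study's methods the animals were adult, and no cell sorting step is described for the cultures. The paper reports that most cells of such cultures were glia, with few neurons and fibroblasts, by immunocytochemistry and RNA-Seq markers. The sources do not say whether the libraries of a group came from separate cultures or animals.

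Fibroblasts of the gut wall secrete and organise collagen matrix and are usually recognised by the receptor PDGFRα and by the collagen-binding proteoglycans decorin and lumican. Smooth muscle cells of the muscularis contract through actin isoforms and myosin of their own and express calponins and transgelin with them. Both cell types, and intermediate states between them such as myofibroblasts, grow readily in culture, and smooth muscle cells in culture commonly lose contractile proteins while keeping Acta2. None of the 9 genes is exclusive to its cell type. Thy1 is also made by neurons, Pdgfrb by pericytes, and Acta2 and Tagln by activated fibroblasts.

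The table gives the authors' mean of each group and no value per sample. The values are CPM, counted reads scaled to a fixed total per library, from a 3′ kit that makes about the same number of fragments from long and short transcripts, so they were not divided by length. Many low means were whole multiples of what a read was worth in each library, and this gave rounded depths of 9091000, 9673000 and 10192000 counted reads for the vehicle libraries and 7532000, 7918000 and 8320000 for the IL-1β libraries. For 2015 genes the reads of every library in both groups could be resolved in this way. Each resolved library is named by its depth within its group, because nothing ties a depth to a sample. None of the 9 genes could be resolved. Their spread between libraries is therefore unknown, no test was possible, and the intervals below cover counting error only. Among resolved genes with a mean of 10 to 30 CPM, the coefficient of variation between vehicle libraries had a median of 14.0% (quartiles 9.16% and 20.2%, 831 genes), against 7.81% from counting alone.

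Fibroblast genes stood high in vehicle cultures. Dcn, which encodes decorin, had an authors' mean of 6593 CPM and ranked 5 of 13452 genes, while the median gene stood at 16.2 CPM. Lum, which encodes lumican, had 800.7 CPM and rank 100. Postn, the matrix protein periostin, had 163.2 CPM, Pdgfra 112.2 CPM, Pdgfrb 90.2 CPM and Thy1 54.9 CPM. Together the 6 genes made up 0.781% of all counted reads, and Dcn alone held 82.3% of the summed level of all 9 genes.

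Smooth muscle genes stood lower and were spread more widely. Acta2, the smooth muscle α-actin, had an authors' mean of 149.3 CPM in vehicle cultures. Tagln, the actin-binding protein transgelin, had 42.0 CPM, and Actg2, the γ-actin of visceral smooth muscle, 7.09 CPM at rank 9455. Actg2 was the only one of the 9 genes below the median gene, and the level of Acta2 was 21.1-fold that of Actg2. In the order of vehicle levels (Dcn, Lum, Postn, Acta2, Pdgfra, Pdgfrb, Thy1, Tagln, Actg2) the steps from Dcn to Lum, Lum to Postn and Tagln to Actg2 were 8.23-fold, 4.91-fold and 5.93-fold. Postn and Acta2 differed by 1.09-fold, less than the median coefficient of variation given above, and they changed places with IL-1β. That coefficient is between single libraries for genes of 10 to 30 CPM. It is only a rough guide to group means at this higher level. The other neighbours differed by 1.24-fold to 1.64-fold, and whether those steps exceed the spread of these genes was not tested.

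**Figure D1:**
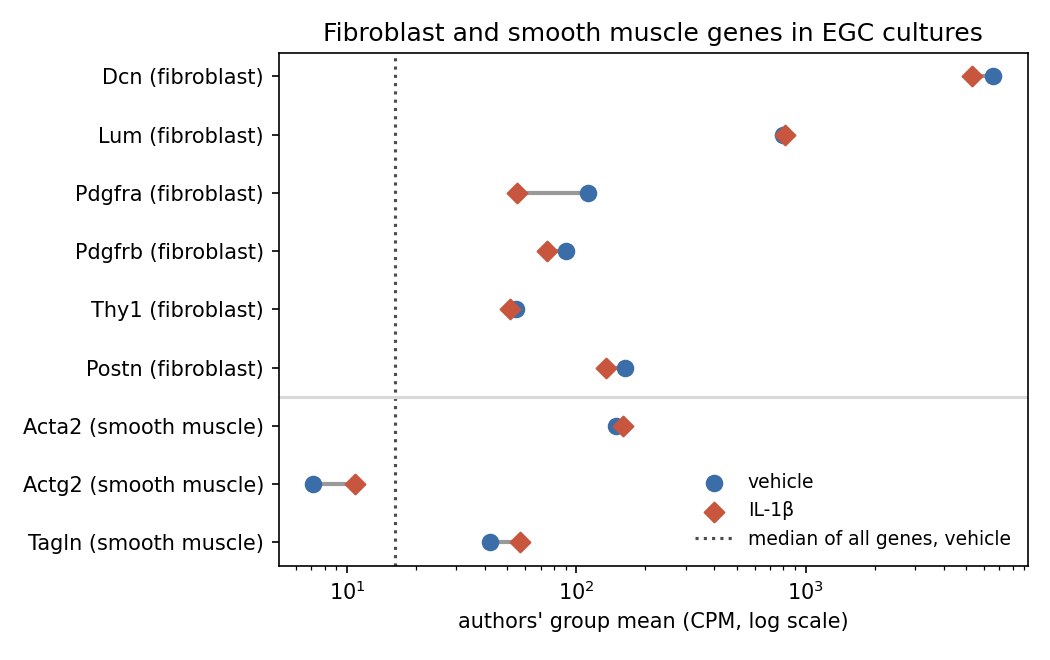
Authors' group means of the 9 genes in EGC cultures on a logarithmic CPM axis, with a circle for vehicle, a diamond for IL-1β and a dotted line at the median of all genes with vehicle (16.2 CPM). Dcn stood near 6593 CPM, Actg2 was the only gene left of the dotted line, and the widest gap between circle and diamond was that of Pdgfra.

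Acta2 and Actg2 belong to a family of near-identical actins, so their coding starts are shown to let a reader see how far the genes differ, beside Actb and Actg1, the cytoplasmic actins present in all cells. The first 30 coding bases (GENCODE vM21) follow, with capitals where a base differs from Acta2 at the same position, counted without gaps.
Acta2: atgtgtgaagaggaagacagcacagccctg
Actg2: atgtgtgaagaAgaGACcaCcGcCCTTGtg
Actb: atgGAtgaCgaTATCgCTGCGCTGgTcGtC
Actg1: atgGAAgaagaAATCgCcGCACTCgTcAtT
Acta2 and Actg2 differed at 11 of these positions, and the coding sequence of Actg2 is the shorter one (1128 against 1131 bases). No gap was placed for that difference in length, so part of the 11 reflects a shift rather than changed bases. The same limit holds for Actb and Actg1, which have 1125 coding bases each. Aligned at their ends, both coding sequences were identical at 83.8% of bases. The kit reads the 3′ ends of transcripts. Stretches of 50 bases were taken from the last 500 bases of protein-coding transcripts of Acta2, Actg2 and the other 7 genes. None occurred in a transcript of another gene, searched in the sense direction only, which bears on reads without errors only. Tagln overlaps Pcsk7 and Gm48529 on the opposite strand, and Pdgfra overlaps Gm42802, Gm42803 and Mir7025. The kit keeps the strand, but whether the counting used it is not stated.

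Acta2 is the classical target of serum response factor, which binds the CArG box, a run of A and T between CC and GG. Its promoter is shown to let a reader see such boxes before the start of a smooth muscle gene. The 250 bases before the RefSeq start of Acta2 (GRCm38.p6, chr19:34255374-34255623, minus strand) are printed in the direction of the gene, with capitals for CArG boxes with at most 1 other letter.
Acta2 promoter: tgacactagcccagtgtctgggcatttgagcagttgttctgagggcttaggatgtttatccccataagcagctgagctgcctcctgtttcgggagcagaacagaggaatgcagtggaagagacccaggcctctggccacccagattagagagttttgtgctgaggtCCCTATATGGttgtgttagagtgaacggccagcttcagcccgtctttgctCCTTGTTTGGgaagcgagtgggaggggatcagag
The first box begins 84 bases and the second 34 bases before the start, and neither overlapped another match. A box with at most 1 other letter, searched in a form that reads alike on both strands, was present in 18.6% of 32851 promoters of the same length, and an exact box in 1.47%. Myl9, the myosin light chain of smooth muscle, had 1 exact box among 2 of the looser kind, Cnn1 and Des had 0, and so had Pdgfra and both starts of Postn. The promoters of the other members were not analysed here.

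With IL-1β, most of the 9 genes stayed within 1.5-fold of their vehicle mean. A gene was counted as higher or lower where its mean differed by more than 1.5-fold, with no test behind the count. Pdgfra was the only one of the 9 genes counted lower, beside 21.2% of the 13445 genes kept, and Actg2 the only one counted higher, beside 4.25%. The kept genes had an authors' mean of at least 1 CPM in either group. Their median log2 ratio was −0.14, so a gene at 0 lay above the middle of all genes. Of the 13445, 571 were higher and 2855 lower, or 936 and 2236 after each log2 ratio was centred on that median. On the scale as deposited, 5 of the 9 genes had a lower and 4 a higher mean with IL-1β. Relative to the median of all genes, 4 lay below and 5 above, and Thy1 was the gene that crossed.

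Pdgfra, the receptor for PDGF-A and the usual marker of gut fibroblasts, had authors' means of 112.2 CPM with vehicle and 54.95 CPM with IL-1β, which is 2.04-fold lower. The log2 ratio was −1.03, or −0.89 relative to the median of all genes, and the 95% counting interval of the IL-1β to vehicle ratio ran from 0.459 to 0.523 (Clopper-Pearson, about 3242 and 1304 reads). Of 44 resolved genes with a vehicle mean of at least 5 CPM and a log2 ratio between −1.1 and −0.9, 39 (88.6%) had all 3 IL-1β libraries below all 3 vehicle libraries. Over all 2015 resolved genes that share was 26.4%, but the 44 were picked by their ratio, a choice that raises the share by itself. Resolved genes had means of up to 30 CPM, and the libraries of Pdgfra itself could not be compared. Pdgfra is on chromosome 5 from 75152292 to 75198215 on the plus strand (GRCm38), and no CArG box stood before its start.

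Pdgfrb encodes the second PDGF receptor and had 90.2 CPM with vehicle and 74.8 CPM with IL-1β, a ratio of 0.830 with a counting interval of 0.781 to 0.882. The level of Pdgfra over Pdgfrb was thus 1.24 with vehicle and 0.734 with IL-1β, so the order of both receptors turned. Of 4 PDGF ligand genes with a row, 0 were past 1.5-fold (21.2% lower and 4.25% higher over all genes). However, Pdgfb, at 1.42-fold lower, was 1.65-fold lower without the shallowest of the vehicle libraries. Pdgfa had 110.1 and 103.0 CPM, and Pdgfb, Pdgfc and Pdgfd stayed under 6 CPM in both groups. The log2 ratios of the 4 ran from −0.51 to −0.09.

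Matrix genes of the fibroblast set moved little. Dcn had 6593 CPM with vehicle and 5298 CPM with IL-1β, a ratio of 0.804 (counting interval 0.798 to 0.810) and −0.18 on the log2 scale relative to the median of all genes. Postn had 163.2 and 134.9 CPM, a ratio of 0.827 (0.791 to 0.865). Lum had 800.7 and 814.4 CPM, a ratio of 1.02 (0.998 to 1.04). Whether both differ from each other was not tested. Dcn and Lum are neighbours on chromosome 10 of GRCm38, Dcn from 97479609 to 97518143 and Lum from 97565128 to 97572703. Thy1, a surface glycoprotein of fibroblasts and neurons, had 54.9 and 51.5 CPM, a ratio of 0.938 (0.870 to 1.01). Of 161 resolved genes with log2 ratios between −0.4 and −0.2, where those of Dcn, Pdgfrb and Postn lie, the libraries were all below for 30 (18.6%). Of 193 between −0.1 and 0.1, where those of Lum, Thy1 and Acta2 lie, they were all below for 1 and all above for 0. Over all 2015 resolved genes the shares were 26.4% below and 5.36% above. Both sets were picked by their ratio, a choice that sets much of the share by itself. Resolved genes had means of up to 30 CPM, far below Dcn and Lum, whose own libraries could not be compared.

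Smooth muscle genes of the set had the higher means with IL-1β. Acta2 had 149.3 CPM with vehicle and 159.8 CPM with IL-1β, a ratio of 1.07 (counting interval 1.03 to 1.12). Tagln had 42.0 and 57.1 CPM, a ratio of 1.36 (1.26 to 1.47) and a log2 ratio of 0.44. Actg2 had 7.09 and 10.9 CPM, a ratio of 1.53 whose interval of 1.27 to 1.85 took in the 1.5-fold limit (about 205 and 258 reads). Of 58 resolved genes with log2 ratios between 0.4 and 0.7, the IL-1β libraries were all above the vehicle libraries for 31 (53.4%). The share over all 2015 resolved genes was 5.36%, but the 58 were picked by their ratio, a choice that raises the share by itself. The libraries of Tagln and Actg2 themselves could not be compared. The median log2 ratio was 0.44 over the 3 smooth muscle genes, −0.27 over the 6 fibroblast genes and −0.14 over all genes. Summed levels were 198.4 and 227.8 CPM for the 3 genes and 7814 and 6429 CPM for the 6 genes. In bulk RNA a smaller number of cells of a type and less RNA per cell cannot be told apart.

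**Figure D2:**
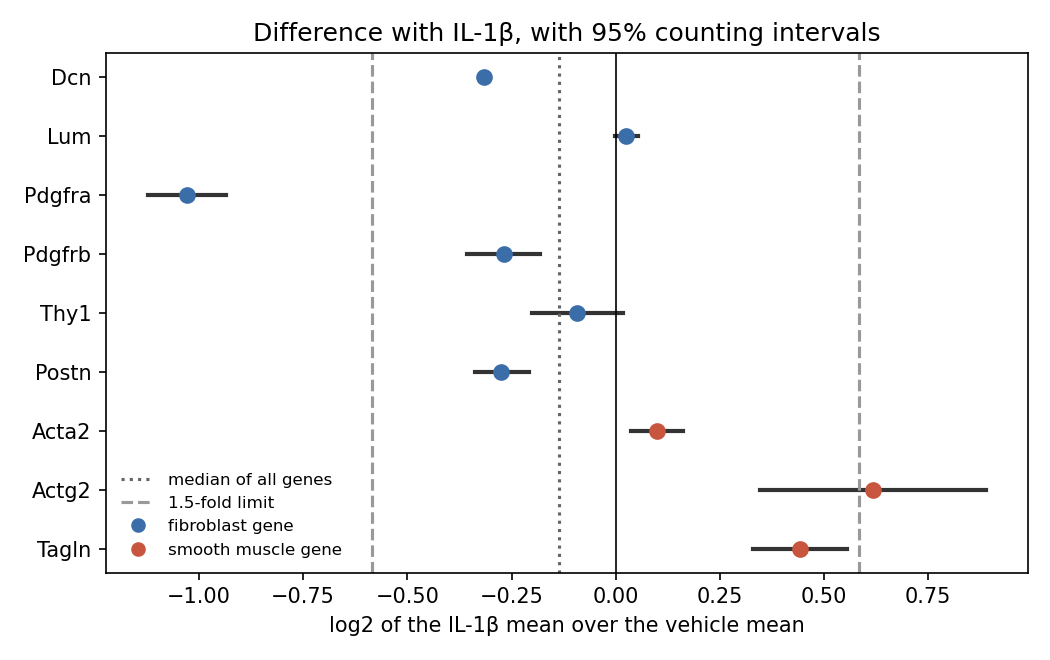
Log2 of the IL-1β mean over the vehicle mean for each of the 9 genes (points; blue for fibroblast, red for smooth muscle genes), with 95% counting intervals as bars, a dotted line at the median of all genes (−0.14) and dashed lines at the 1.5-fold limit. Pdgfra lay left of the lower limit at −1.03 with its whole interval, and the interval of Actg2 crossed the upper limit.

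The wider smooth muscle list was mixed. Of 18 other genes of contraction and its cytoskeleton, 14 had a row, 4 were lower and 0 higher with IL-1β (21.2% and 4.25% over all genes), and the median log2 ratio was −0.20 against −0.14 over all genes. The means of 6 of the 14 were higher with IL-1β, though inside the limit, and 1 of them was past it after centring. Cnn1, the calponin of differentiated smooth muscle, had 4.95 CPM with vehicle and 1.43 CPM with IL-1β, and Myh11, the smooth muscle myosin heavy chain and its defining marker, 12.3 and 3.67 CPM. The intermediate filament genes Des and Synm were also past the limit, with log2 ratios of −0.96 and −0.92. The most abundant genes of the list were Cald1, the actin regulator caldesmon (1275 and 1773 CPM), the tropomyosin Tpm1 (493.5 and 579.1 CPM) and the actin crosslinker Flna (257.9 and 350.6 CPM), which many cell types make. Kcnmb1, Myocd, Srf and Mkl1 had no row. Actb had 5702 and 7451 CPM and Actg1 1454 and 1563 CPM, while Acta1 and Actc1, the actins of skeletal and heart muscle, had no row. Among relatives of Tagln, Tagln2, a transgelin of many cell types, had 431.9 and 575.9 CPM, and Cnn3 and Cnn2 had log2 ratios of −0.07 and −0.05. Tagln3, the neuronal transgelin, had 3.23 and 1.02 CPM and was the 1 of 4 past the limit, beside 21.2% lower over all genes.

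Reads per library were resolved in the vehicle group for 5 of these 14 smooth muscle genes, and the vehicle libraries differed from each other. Myh11 had 24.4 CPM in the shallowest, 2.48 CPM in the middle and 10.01 CPM in the deepest vehicle library (222, 24 and 102 reads). Cnn1 had 10.9, 0.827 and 3.14 CPM in the same order, and Myl9 43.6, 18.3 and 26.2 CPM. Des had 19.5, 11.99 and 12.6 CPM and Lmod1, the leiomodin of smooth muscle, 5.28, 4.14 and 2.94 CPM. All 5 genes were thus highest in the shallowest vehicle library, which held the highest value for 18.3% of 1988 resolved genes of at least 1 CPM. That library was lowest for 6 of 6 resolved glial genes and for 6 of 6 resolved neuronal genes, and for 56% of the 1988. Sox2, a transcription factor of enteric glia, had 54.6 CPM there against 86.5 and 97.7 CPM in the others. S100b had 174.2 CPM there, 287.3 and 366.5 CPM elsewhere. These genes were looked at after their values were seen.

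Ratios of the resolved genes were also taken without the shallowest vehicle library. In the IL-1β libraries, from shallowest to deepest, Cnn1 had 0.797, 2.78 and 0.721 CPM, within which the middle library overlapped the vehicle range. Without the shallowest vehicle library, the vehicle mean of Cnn1 fell from 4.95 to 1.98 CPM, and its log2 ratio went from −1.79 to −0.47, inside the 1.5-fold limit. Myh11 went from −1.75 to −0.77 and Des from −0.96 to −0.70, both still past it. Myl9 went from −0.27 to 0.13 and Lmod1 from −0.12 to 0.09. Of 4 smooth muscle genes resolved in both groups, Des had all IL-1β libraries (9.56, 5.18 and 7.93 CPM) below all vehicle libraries, which held for 26.4% of all 2015 resolved genes. Resolved glial and neuronal genes lay further from their vehicle means without the shallowest vehicle library. This follows from that library being the lowest for all of them. Foxd3 went from 2.41-fold to 2.99-fold lower, Cdh19 from 2.07-fold to 2.37-fold, Nos1 from 2.02-fold to 2.38-fold and Snap25 from 3.19-fold to 3.72-fold. Leaving out the deepest vehicle library instead brought them nearer. The log2 ratio of Foxd3 went from −1.27 to −0.94, that of Nos1 from −1.01 to −0.63 and that of Snap25 from −1.68 to −1.37. S100b went from −0.22 to 0.04 and Erbb3 from −0.32 to 0.03. Whether Acta2, Actg2 and Tagln followed the shallowest vehicle library was not tested, because their reads could not be resolved.

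Other fibroblast genes lay closer together in the vehicle libraries than the 5 smooth muscle genes above. Of 6 that were resolved, 1 was highest and 4 were lowest in the shallowest library, beside 18.3% and 56% of the 1988 resolved genes. The level there over the mean of the others ran from 0.693 (Fbln1) to 1.21. That of the 5 smooth muscle genes ran from 1.49 to 5.49, and the glial gene Scn7a had 0.702. Fap, a surface protease of activated fibroblasts, had 7.70, 8.79 and 9.32 CPM with vehicle and 7.83, 8.34 and 9.62 CPM with IL-1β, so that the groups overlapped. Igfbp6 had 156.6, 123.4 and 134.9 CPM with vehicle and 157.6, 140.6 and 167.8 CPM with IL-1β, which also overlapped. Fbln1 had 29.9, 40.1 and 46.2 CPM with vehicle and 45.4, 46.0 and 49.2 CPM with IL-1β. Twist1, a transcription factor of mesenchymal cells, was the 1 of the 6 whose libraries did not overlap, with 6.60, 5.48 and 8.44 CPM against 1.59, 3.66 and 2.16 CPM. Over all 2015 resolved genes the IL-1β libraries were all below for 26.4% and all above for 5.36%, so 1 of 6 does not set these genes apart.

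**Figure D3:**
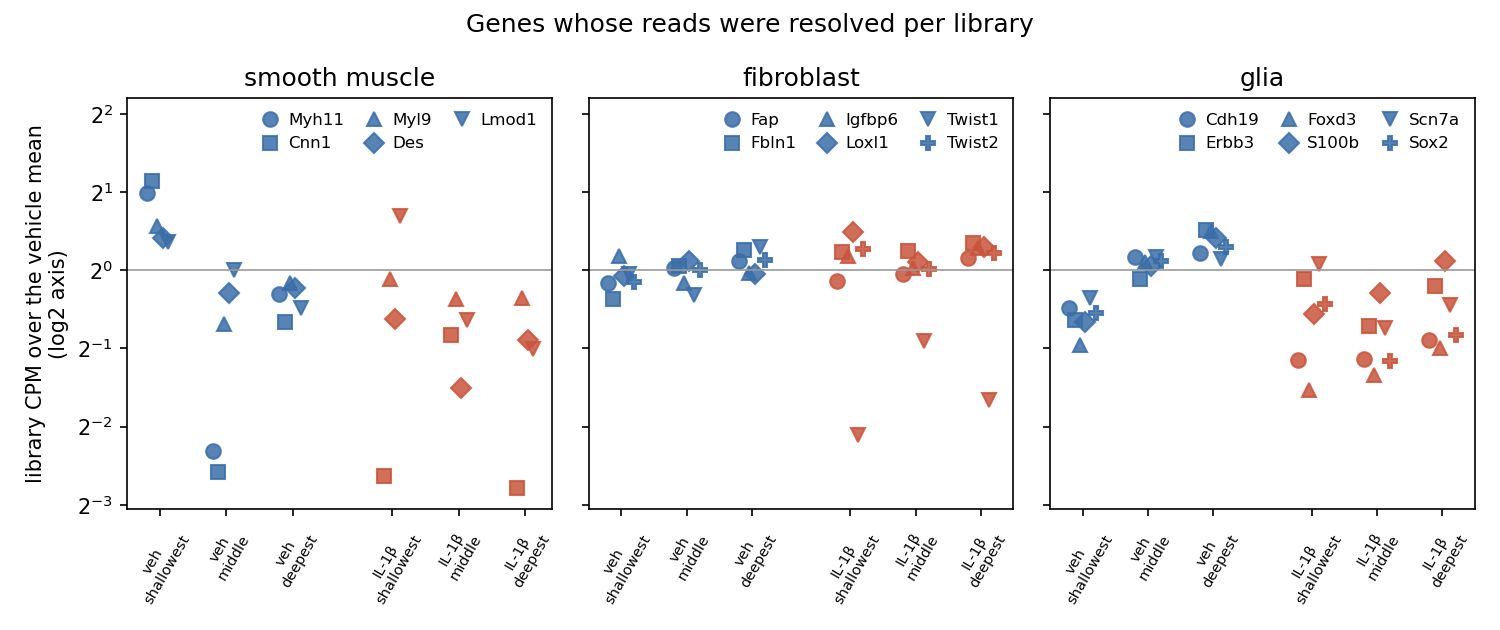
CPM of each library divided by the mean of the vehicle libraries, on a log2 axis, for smooth muscle, other fibroblast and glial genes whose reads could be resolved; blue marks vehicle and red IL-1β libraries, ordered by depth within the group, and Myh11 was resolved with vehicle only. In the shallowest vehicle library all 5 smooth muscle genes stood above and all 6 glial genes below 1. The fibroblast genes lay on both sides of 1 there, and Twist1 was lower in the IL-1β libraries than in any vehicle library.

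Many genes of the wider fibroblast list stood high in both groups. Of 28 other fibroblast genes, 26 had a row, 1 was higher and 1 lower with IL-1β (4.25% and 21.2% over all genes), and the median log2 ratio was 0.06 against −0.14 over all genes. Sparc, a collagen-binding glycoprotein, had 8215 and 8920 CPM, Col3a1, a fibrillar collagen, 3300 and 2628 CPM, and Col1a1 3185 and 3308 CPM. Pdpn, the surface mucin podoplanin of activated fibroblasts, was the higher one with 411.6 and 627.7 CPM, and Twist1, 2.77-fold lower, the other. The median vehicle level of these 26 genes was 412.7 CPM, against 109.4 CPM for 14 glial genes and 27.3 CPM for the 14 other smooth muscle genes. The amount of a transcript per cell differs between cell types, so these levels cannot be read as proportions of cells. Which cells made these transcripts was not tested.

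Relatives of Dcn and Lum, the small leucine-rich proteoglycans, were split. Of 8 listed besides Dcn and Lum, 5 had a row, 2 were lower and 0 higher (21.2% and 4.25% over all genes), and the median log2 ratio was −0.35. Aspn, which encodes asporin, was 1.70-fold lower (42.9 and 25.2 CPM) and Ogn, which encodes osteoglycin, 1.62-fold lower (321.3 and 197.8 CPM). Bgn, which encodes biglycan, a close relative of decorin, had 1506 and 1719 CPM. Prelp had 257.8 and 239.2 CPM as group means, and its 3 libraries overlapped between the groups (256.4, 221.3 and 295.6 CPM with vehicle, 282.8, 219.0 and 215.9 CPM with IL-1β). Centred on the median of all genes, 1 of the 5 was past the limit.

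Partners of periostin stayed close to their vehicle levels. Of 6 genes for proteins related to periostin or joined with it in the matrix, all had a row. Among them 0 were past the limit (21.2% lower and 4.25% higher over all genes), with log2 ratios from −0.19 to 0.23. Fn1 and Lox also stand in the fibroblast list. The most abundant were Fn1, fibronectin (2281 and 2386 CPM), Lox, a collagen crosslinking enzyme (1688 and 1864 CPM), and Tnc, tenascin-C (273.7 and 321.0 CPM). Genes of TGF-β signalling, which drives Postn, Acta2 and Tagln in fibroblasts, differed in both directions. Of 6, 3 were lower and 0 higher (21.2% and 4.25% over all genes), and the median was −0.55. The ligand Tgfb1 had 11.8 and 17.3 CPM, a ratio of 1.47, and was past the limit upward after centring and with totals without AY036118, the most abundant transcript. Tgfbr2, the signalling receptor, had 165.6 and 80.9 CPM, and the ligand Tgfb3 23.1 and 9.74 CPM. Tgfb2 had 103.5 and 80.0 CPM, and the co-receptor Tgfbr3 77.8 and 46.7 CPM.

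Genes of other cell types of the muscle layer were measured beside these. Of 7 pericyte genes, 6 had a row, 2 were lower and 0 higher (21.2% and 4.25% over all genes; 1 was lower with a pseudocount of 1 or a minimum mean of 10), with Rgs5 at 11.7 and 4.79 CPM, Abcc9 at 2.32 and 1.31 CPM, Mcam at 43.9 and 43.8 CPM and Cspg4 at 11.1 and 9.15 CPM. Of 10 endothelial genes, 9 had a row and 0 were past the limit (21.2% lower and 4.25% higher over all genes). They ran from Flt1 at 151.7 and 176.7 CPM to Tie1 at 1.63 and 1.86 CPM. Between them, Eng had 40.9 and 47.4 CPM and Kdr 11.4 and 10.3 CPM. Of 8 mesothelial genes, 6 had a row and 2 were lower beside 21.2% over all genes (Krt19 joined them without the shallowest vehicle library, at 1.71-fold lower), with Wt1 at 12.6 and 6.82 CPM, Krt18 at 2.11 and 0.375 CPM, Upk3b at 5.30 and 4.92 CPM and Upk1b at 4.26 and 3.41 CPM. Of the interstitial cells of Cajal, the pacemakers of gut muscle, the defining genes Kit and Ano1 had no row and Etv1 had 55.1 and 36.3 CPM. The macrophage list had 4 rows of 10, led by Lyz2 (113.5 and 136.7 CPM), Csf1r (13.5 and 13.3 CPM) and Cd68 (2.44 and 3.51 CPM).

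Glial and neuronal markers, against which the label of the cultures was checked, were present in both groups. Of 16 glial genes, 14 had a row, 5 were lower and 0 higher with IL-1β (21.2% and 4.25% over all genes), and the median log2 ratio was −0.39. Cryab, a small heat shock protein of glia, had 724.8 and 597.4 CPM, the neurotrophin receptor gene Ngfr 649.5 and 645.3 CPM, S100b 276.0 and 237.2 CPM, Foxd3 39.0 and 16.2 CPM and Cdh19 91.2 and 44.0 CPM. Of 13 neuronal genes, 12 had a row, 7 were lower and 0 higher beside the same shares, and the median was −0.72. Uchl1 had 132.1 and 116.0 CPM, Tubb3 125.7 and 86.1 CPM, Nos1, the neuronal nitric oxide synthase, 100.6 and 49.8 CPM and Snap25 11.6 and 3.64 CPM. The part of the cell makeup of the libraries in the differences with IL-1β was not tested.

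**Figure D4:**
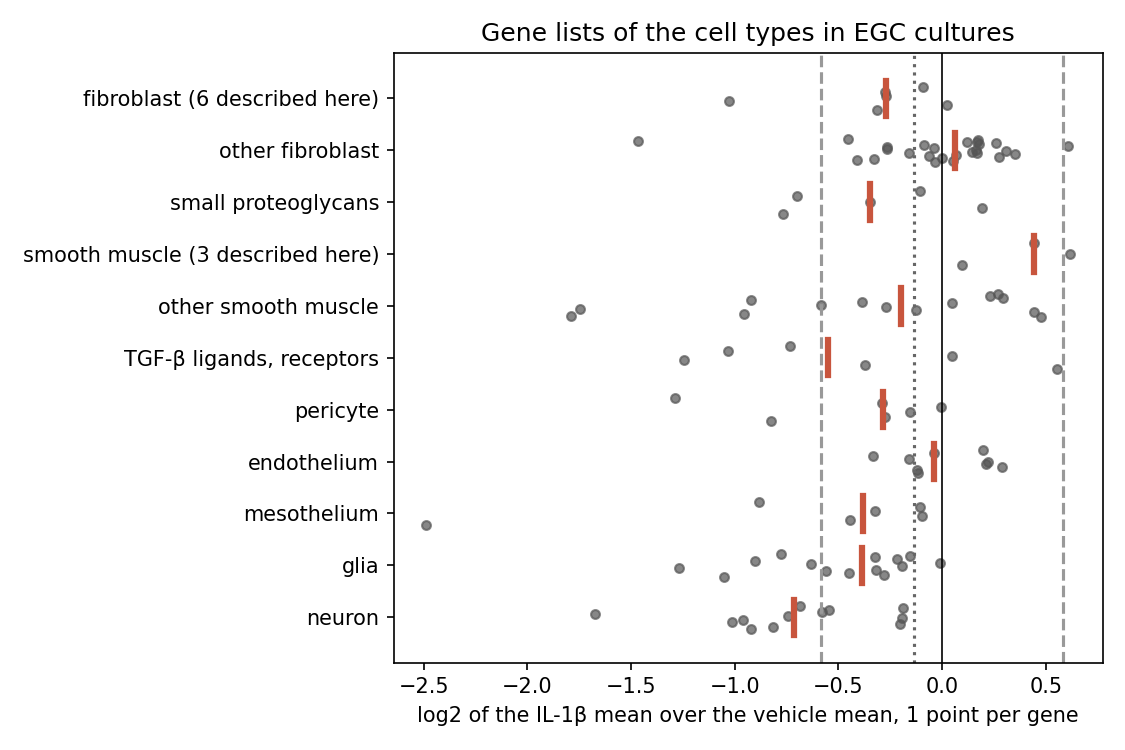
Log2 of the IL-1β mean over the vehicle mean, with a grey point for each gene that had a row, by gene list, and a red bar at the median of the list; the dotted line marks the median of all genes (−0.14), the solid line 0 and the dashed lines the 1.5-fold limit. Medians ran from 0.44 for the 3 smooth muscle genes described here to −0.72 for the neuronal genes.

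BMDMs are cells of the bone marrow lineage that should hold little of these transcripts. Only 3 of the 9 genes had a row among 11200 genes there, and the other 6 are not analysed. The BMDM table was normalised separately, its unit is a scaled signal that could not be settled as CPM or TPM, and levels are therefore set side by side without a test. Dcn had authors' means of 1.67 with RPMI, 2.18 with CM-Veh and 2.77 with CM-IL-1, against 6593 CPM in vehicle EGCs. Acta2 had 16.4, 15.7 and 17.5, against 149.3 CPM in EGCs. Tagln had 2.37, 3.57 and 3.13, against 42.0 CPM. The lowest row of the BMDM table reached 1.18 in its highest group, so Dcn and Tagln stood near its floor. Acta2 stood well above that floor in all 3 groups, so BMDMs were not without it. Tagln was 1.51-fold higher with CM-Veh than with RPMI, where 8% of the genes were past 1.5-fold upward, and Dcn 1.66-fold higher with CM-IL-1, where 8.46% were. Both comparisons share the RPMI libraries, and the depth of the BMDM libraries is unknown, so the counting error of such low means is unknown too.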

How the data were processed

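RNA of 18 libraries (6 of EGCs, 12 of BMDMs) was described by 2 deposited tables. The paper describes 3′ mRNA libraries, and the submitters' processing notes name cutadapt, STAR, Partek and mm10, without versions. The authors' group means (5 columns used, 3 repeated columns left out) are CPM in the EGC table, which was settled from the values, and a scaled signal in the BMDM table, where CPM and TPM could not be told apart. Another 16 deposited columns hold the authors' p-values, FDR values, ratios and folds, and they were not used. Columns of per-sample values numbered 0.

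Depths were found as the values of a read in each library (every mean held an offset of 0.0001 CPM). Of means up to 30 CPM, 2377 with vehicle (26.6%) and 2766 with IL-1β (29.8%) came out as whole reads in every library, against 0 after a shift of 1e-05 CPM. List genes up to 300 CPM were resolved likewise. For the 9 genes, reads were taken as the mean times the summed depth (28956000 and 23771000 reads), and Clopper-Pearson intervals at 95% cover counting error only, since reads are not independent molecules. Genes with a mean of at least 1 in 1 of the groups were kept. A count of higher or lower genes means a ratio past 1.5-fold, with no p-value. The steps were tested on simulated data.

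Members and lists were chosen with earlier results of these data known. The text names all 9 members and, of each other list, the 3 genes with the highest vehicle mean and, past the limit, the 2 with the largest fold each way. Genes resolved per library, missing genes and a few others were named after their values were seen. Gene positions come from GENCODE vM21 (GRCm38), promoters from RefSeq (GRCm38.p6). Promoters of 3 of the 9 genes were at hand. Python 3.11.15, numpy 2.4.6, pandas 2.3.3, scipy 1.17.1 and matplotlib 3.10.9 were used. Alternatives were centring, totals without AY036118, a pseudocount of 1, other filters, a fold limit of 2 and, chosen after seeing the data, leaving out each vehicle library.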

Additional observations from a re-analysis of the deposited data

How the results depend on the processing

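Thy1 changed sign after centring on the median of all genes (log2 ratio 0.043). The other 8 members kept their sign under the 6 alternatives for the change with IL-1β. Only centring and the totals without AY036118 could change a sign. The filters, the fold limit and the pseudocount leave the direction of each ratio as it is. Centring moved the median log2 ratio of the 9 genes to 0.043, of the 6 fibroblast genes to −0.14 and of the 3 smooth muscle genes to 0.58. With a pseudocount of 1, or with a fold limit of 2, the number of members counted higher was 0, because Actg2 dropped inside the limit. Pdgfra was counted lower under all 6, though the filters on low means could not alter that count. The count of lower genes among all kept genes was 1371 with a minimum mean of 10 and 1341 with a fold limit of 2, against 2855, and that of higher genes was 281 and 136, or 936 after centring and 379 with a pseudocount of 1, against 571. Totals without AY036118, a transcript that took 23.3% and 25.1% of the EGC means, raised the vehicle level of Dcn to 8619 CPM and left the ratios of Dcn and Lum at −0.28 and 0.06 on the log2 scale. Without the shallowest vehicle library, Cnn1 was no longer past the limit (−0.47), and without the middle or the deepest it was. Among the other resolved list genes, Pdgfb (−0.72), Krt19 (−0.78) and Cd68 (0.59) moved past the limit without the shallowest vehicle library, C1qa (1.00) and Cd68 (0.74) without the middle one and Tgfb1 (0.77) without the deepest, and Elavl3 (−0.48) and Ret (−0.35) moved inside it without the deepest. No paired analysis was possible because the tables hold group means, and for the same reason leaving out a replicate was not possible for the 9 genes. Depth limits Actg2 most, with about 205 reads over the 3 vehicle libraries.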
